A study of Mus musculus with 14 samples.

Results

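The amino acid transporter genes of mouse liver were followed here in a model of acute liver failure. They were chosen by symbol: every gene whose name starts with Slc1a, Slc3a, Slc6a, Slc7a, Slc36a, Slc38a or Slc43a, with the cystine carrier Slc7a11 left out. The rule found 66 of the 55357 genes in the count tables. Of these, 62 were named as transporters, and 4 (Slc6a19os, Slc36a1os, Slc36a3os and Slc7a6os) were named for the opposite strand of one and were counted apart. The model group was 8 livers of male C57BL/6 mice that received an intraperitoneal injection of lipopolysaccharide (10 µg/kg), a toxin of bacterial outer membranes, with D-galactosamine (300 mg/kg), an amino sugar that injures hepatocytes. The control group was 6 livers of male C57BL/6 mice injected with saline. Per the labels, mice were 5 to 6 weeks old when a week of acclimatisation began, and livers were taken 24 h after injection. The labels do not say that each sample was a separate animal, so the p-values speak of the spread among the samples, which may be technical.

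Amino acids do not cross membranes unaided, and each cell type uses a set of carriers that overlap in what they move. Some carriers are driven by sodium and concentrate amino acids in the cell, as the Slc1a, Slc6a and Slc38a families do. Others exchange one amino acid for another, as most of the Slc7a light chains do once they are joined to a heavy chain of the Slc3a family. The liver takes up glutamine, alanine, arginine and glycine from the blood for the urea cycle and glucose formation, and hepatocytes around the central vein take up glutamate and make glutamine from it. In many cell types, carriers of this kind are among the genes that respond to a shortage of amino acids and to immune activation.

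Libraries held 10329469 to 16639972 counts in genes in the model group and 7914120 to 14463540 in the control group. Values per library are counts scaled to library size (counts per 1e6, CPM). Hepatocyte markers were present at high levels, summed to 93270 to 104630 CPM in model livers and 63791 to 85664 CPM in control livers over 11 genes, none of them at 0. Of these 11 genes, 3 were called higher, none of them by 2-fold or more, and 8 did not pass. Alb alone averaged 52287 CPM in model livers and 29439 CPM in control livers. Markers of several other cell types moved with the group, beside 26.6% of all genes tested that were called higher and 21.3% lower. All 13 neutrophil markers tested, of 15 listed, were called higher in the model, with sums of 1473 to 3010 CPM in model livers and 4.74 to 17.1 CPM in control livers, and Ly6g was at 0 in the controls. Of 12 monocyte and macrophage markers, 10 were called higher and 1 lower, with sums of 461 to 712 CPM in model livers and 183 to 375 CPM in control livers, and none was at 0. All 7 cholangiocyte markers tested were called, 6 higher and 1 lower, with sums of 65.6 to 130.1 CPM in model livers and 40.5 to 60.4 CPM in control livers, and none was at 0. Of 10 stellate cell and fibroblast markers, 7 were higher and 2 lower, with sums of 412 to 821 CPM in model livers and 191 to 243 CPM in control livers. Of 10 sinusoidal endothelial markers, 4 were higher and 3 lower (262 to 519 CPM in model livers and 177 to 246 CPM in control livers). Lyve1 (mean 120 CPM in model livers and 4.77 CPM in control livers) and Cdh5 (81.7 and 7.12 CPM) rose the most. Clec4g (24.8 and 86.1 CPM), Ehd3 (11.9 and 33.8 CPM) and Kdr (2.63 and 13.2 CPM) were lower. Of 10 Kupffer cell markers, 3 were higher and 3 lower, with overlapping sums (308 to 655 CPM in model livers and 301 to 483 CPM in control livers). All 4 platelet markers tested were higher (8.14 to 50.1 CPM in model livers and 2.18 to 3.05 CPM in control livers, with Gp1ba and Gp6 at 0 in the controls). Of 6 erythroid markers tested, 5 were higher and 1 lower (1210 to 25508 CPM in model livers and 429 to 1599 CPM in control livers, with Epb42 and Gata1 at 0 in the controls). Of 11 T and NK cell markers tested, 8 were higher and none lower, while the sums overlapped (20.7 to 59.0 CPM in model livers and 14.6 to 60.5 CPM in control livers). The part of these cells in the transporter results was not tested, and in whole liver a smaller number of cells of a type cannot be told apart from less RNA per cell. Control replicate 6 stood apart: it was the highest of the 6 controls for 25 of the 30 transporter genes tested. The controls also spread downwards, with replicate 4 the lowest for 14 genes and replicate 1 for 13. All transporters summed to 895 CPM in control replicate 4, 979 CPM in replicate 1 and 2694 CPM in replicate 6. Of the controls, replicate 1 had the fewest counts in genes and replicate 6 the most. Replicate 4, with the lowest sum, had more counts in genes (10828800) than replicates 1, 2 and 5.

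Of the 62 transporters, 12 had no count in any library and 30 had enough counts to be tested. At an adjusted p under 0.05 (edgeR's quasi-likelihood test with Benjamini-Hochberg adjustment over 12915 genes), 14 of the 30 were higher in model livers, 1 was lower and 15 did not pass. The share called in either direction, 50%, was near the 47.9% of all genes tested. By direction, 46.7% were higher and 3.33% lower, beside 26.6% higher and 21.3% lower among all genes tested. Each of the 14 was higher by at least 2-fold, a size that 20.3% of all genes tested reached upwards and 12.7% downwards. The ranges of the groups were apart for 10 of the 30, all higher in the model, and for 23.2% of all genes tested. The median log2 fold change was 0.93 over the 30 and 0.0099 over all genes tested. These shares describe the tested transporters and not the whole families, because 9 of the 30 passed the low-count filter through the model livers alone, and 8 of those 9 were among the 14. Among the 21 that either group alone would have carried through the filter, 6 were higher, 1 was lower and 14 did not pass.

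By family, the Slc7a light chains and cationic carriers had 5 of 6 tested members higher, and the Slc1a glutamate and neutral amino acid carriers had 3 of 3. Of the 3 Slc43a carriers 2 were higher, and of the pair of Slc3a heavy chains 1 was. The Slc38a family, which holds the most abundant transporters of these livers, had 2 of 8 higher and 1 lower. The Slc6a family had 1 of 6 higher, and neither of the Slc36a carriers tested passed. These family counts depend on the low-count filter. Slc1a4, Slc1a5, Slc6a14, Slc7a1, Slc7a5, Slc7a6, Slc7a8 and Slc38a1 were called higher and had passed it through the model livers alone.

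**Figure D1:**
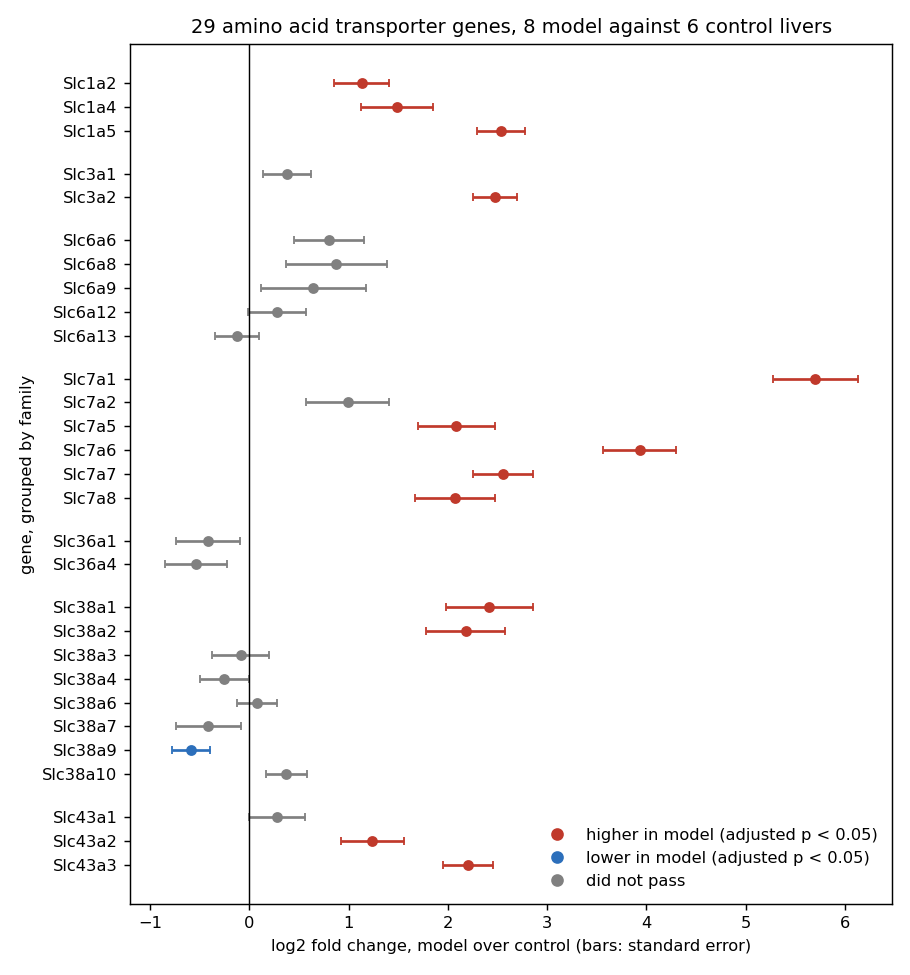
Log2 fold change of 29 transporter genes, model over control (x axis), with the gene down the y axis grouped by family. Points are estimates from 8 model and 6 control livers and bars are standard errors. Red points passed the test upwards, the blue point is Slc38a9 (-0.59), and Slc7a1 lies farthest right at 5.70. Slc6a14, which had no control count, is not drawn.

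The windows around the start sites of 4 of the genes that were higher are given first, because they hold short motifs of factors known to act in the amino acid shortage response or in immune activation. Sequences are RefSeq's, build GRCm38.p6, each 300 bases long, from 250 bases before to 50 after an annotated start, written 5′ to 3′ on the strand of the gene. Capitals mark a match, read on both strands, to the C/EBP-ATF response element TGATGNAA (Slc1a4 and Slc7a7) or to the AP-1 motif TGANTCA (Slc7a1 and Slc6a14). The windows are chr5:148399855-148400154 (minus strand) for Slc7a1, chrX:21714650-21714949 (plus strand) for Slc6a14, chr11:20332664-20332963 (minus strand) for Slc1a4 and chr14:54417895-54418194 (minus strand) for Slc7a7.
Slc7a1: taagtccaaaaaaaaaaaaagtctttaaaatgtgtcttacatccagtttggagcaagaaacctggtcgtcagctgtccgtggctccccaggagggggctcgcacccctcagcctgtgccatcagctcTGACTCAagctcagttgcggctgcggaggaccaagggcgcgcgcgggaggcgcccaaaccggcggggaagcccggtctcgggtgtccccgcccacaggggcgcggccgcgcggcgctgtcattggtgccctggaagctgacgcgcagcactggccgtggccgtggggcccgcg
Slc6a14: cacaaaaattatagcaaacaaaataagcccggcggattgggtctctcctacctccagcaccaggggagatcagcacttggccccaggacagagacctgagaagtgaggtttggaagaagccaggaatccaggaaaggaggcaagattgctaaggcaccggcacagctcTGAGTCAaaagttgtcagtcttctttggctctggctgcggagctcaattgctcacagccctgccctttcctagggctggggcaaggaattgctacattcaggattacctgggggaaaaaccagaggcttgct
Slc1a4: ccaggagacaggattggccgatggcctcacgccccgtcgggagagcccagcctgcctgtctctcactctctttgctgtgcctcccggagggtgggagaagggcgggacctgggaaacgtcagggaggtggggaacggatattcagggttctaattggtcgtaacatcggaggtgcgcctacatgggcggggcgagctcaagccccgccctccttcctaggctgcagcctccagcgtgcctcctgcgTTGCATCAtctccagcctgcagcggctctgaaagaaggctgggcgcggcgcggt
Slc7a7: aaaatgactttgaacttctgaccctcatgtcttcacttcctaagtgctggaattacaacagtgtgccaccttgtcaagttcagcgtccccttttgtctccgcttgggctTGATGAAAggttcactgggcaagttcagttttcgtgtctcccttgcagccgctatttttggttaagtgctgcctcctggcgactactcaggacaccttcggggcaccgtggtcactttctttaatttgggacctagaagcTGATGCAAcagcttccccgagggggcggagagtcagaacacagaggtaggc

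Promoter windows were matched for 44 of the 62 transporters and for 11 of the 15 that passed the test. Among those 11, the C/EBP-ATF element was in a window of 2 (Slc1a4 and Slc7a7), of 3 among all 44 transporters with a window, and in 3.97% of all 32851 windows. The AP-1 motif was in a window of 2 (Slc7a1 and Slc6a14), of 8 among the 44, and in 7.81% of all windows. The palindromic STAT motif TTCNNNGAA was in a window of 2 (Slc38a9 and another start of Slc7a1), of 3 among the 44, and in 8.3% of all windows. The E-box CACGTG was in a window of none of the 11, of 9 among the 44, and in 7.15% of all windows. The windows printed are ones with a match, and most called transporters with a window had neither of the first pair of motifs. A gene can have several windows, so shares per gene and per window are not alike. Per window, the C/EBP-ATF element was in 6.15% of the 65 windows of transporters, and the AP-1 motif in 13.8%. The STAT motif was in 4.62% of them and the E-box in 13.8%. These shares are given with no test. A match is a description of the letters and not of a bound factor.

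Within the Slc7a family, the pair of cationic amino acid carriers changed unequally. They bring arginine, lysine and ornithine into cells. Slc7a1, the form that most tissues outside the liver use, had a lowest, median and highest value of 5.67, 7.73 and 15.2 CPM in model livers and of 0, 0.153 and 0.328 CPM in control livers. Its lowest model liver was thus far above its highest control, and the gene had 980 counts over the 8 model libraries and 13 over the 6 controls. Means were 9.23 ± 3.44 CPM in model livers (SD, n = 8) and 0.155 ± 0.113 CPM in control livers (SD, n = 6). The log2 fold change was 5.70 (SE 0.43, adjusted p = 7.1e-09), and its size rests on the few control counts.

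Slc7a2, the cationic carrier that is typical of liver, had a lowest, median and highest value of 53.1, 190 and 338 CPM in model livers and of 60.1, 74.6 and 206 CPM in control livers. The ranges overlapped: model replicate 3, at 53.1 CPM, was below every control and replicate 4, at 73.3 CPM, among them, while models 2, 6 and 7 were at 327 to 338 CPM. Means were 204 ± 118 CPM in model livers (SD, n = 8) and 102 ± 56.0 CPM in control livers (SD, n = 6). The log2 fold change of 0.99 (SE 0.42) did not pass the test (adjusted p = 0.0587). It passed without control replicate 6 (1.36, adjusted p = 0.0127), without model replicates 3 and 4 together (1.30, adjusted p = 0.00565), without model replicate 1, 3 or 4 alone (adjusted p = 0.0489, 0.0197 and 0.0304), and with DESeq2's Wald test (0.95, adjusted p = 0.0373). Models 3 and 4 were the lowest models for this gene and were left out as a pair with that known. The p-value without the pair therefore does not show a rise. Within each library, the log2 ratio of Slc7a1 to Slc7a2 counts averaged -4.26 ± 1.02 in model livers (SD, n = 8) and -9.10 ± 0.84 in control livers (SD, n = 6). The ranges were apart, and the difference of 4.84 gave p = 0.000333 in a two-sided exact permutation test over every split of the libraries, the smallest p it allows (0.002 after adjustment over the 6 ratios tested here). With a pseudocount of 5 in place of 0.5 the difference was 3.12 (adjusted p = 0.002).

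The 4 light chains of Slc3a2 that could be tested were higher. Of these, Slc7a5, Slc7a6 and Slc7a8 could be tested through their counts in model livers alone. Slc7a10, another partner, had no count in any library. Slc7a7, which exchanges cationic for neutral amino acids together with sodium, had 5.22, 12.2 and 18.9 CPM as lowest, median and highest model value and 1.16, 2.10 and 2.55 CPM in control livers. The groups were apart, and models 3 and 4 were the lowest of the 8. Means were 12.0 ± 4.53 CPM in model livers (SD, n = 8) and 2.03 ± 0.52 CPM in control livers (SD, n = 6), with a log2 fold change of 2.55 (SE 0.30, adjusted p = 2.13e-06). Slc7a7 overlaps Oxa1l on the other strand over 232 exonic bases, and the strand setting of the counts is not known. Slc7a6, its close relative in function, had 2.19, 4.42 and 4.89 CPM in model livers and 0.0824, 0.223 and 0.438 CPM in control livers. Its groups were apart too, with 400 counts in the model and 19 in the control, and its log2 fold change was 3.93 (SE 0.37, adjusted p = 1.24e-07).

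Slc7a5, the exchanger of large neutral amino acids that growing and activated cells use, had a lowest, median and highest value of 2.25, 5.15 and 10.3 CPM in model livers and of 0.482, 1.35 and 2.08 CPM in control livers. The groups were apart by a narrow margin, and models 7 and 8 were the highest. The log2 fold change was 2.08 (SE 0.39, adjusted p = 0.00027), with means of 5.48 ± 2.63 CPM in model livers (SD, n = 8) and 1.25 ± 0.654 CPM in control livers (SD, n = 6). Slc7a8, a related exchanger with a wider choice of neutral amino acids, had 3.82, 6.25 and 9.30 CPM in model livers and 0.212, 1.23 and 3.67 CPM in control livers. Its highest control, replicate 6, almost reached the lowest model liver. Its log2 fold change was 2.07 (SE 0.40, adjusted p = 0.000395), with means of 6.27 ± 1.86 CPM in model livers (SD, n = 8) and 1.43 ± 1.17 CPM in control livers (SD, n = 6). The log2 ratio of Slc7a5 to Slc7a8 averaged -0.28 ± 0.42 in model livers (SD, n = 8) and 0.01 ± 1.22 in control livers (SD, n = 6), a difference of -0.29 that did not pass (adjusted p = 0.614, exact permutation test). A p that misses the threshold does not show that they changed alike.

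Slc3a2, the heavy chain that carries these light chains to the cell surface, had a lowest, median and highest value of 50.01, 70.2 and 95.6 CPM in model livers and of 7.53, 13.7 and 18.4 CPM in control livers. Every model liver was more than 2-fold above every control. Means were 73.6 ± 15.9 CPM in model livers (SD, n = 8) and 13.2 ± 3.63 CPM in control livers (SD, n = 6), and the log2 fold change was 2.48 (SE 0.22, adjusted p = 7e-08). The other heavy chain, Slc3a1, which pairs with Slc7a9 in kidney and gut, had 11.4, 22.2 and 31.6 CPM in model livers and 12.9, 14.9 and 25.1 CPM in control livers. The groups overlapped widely, and the log2 fold change of 0.38 (SE 0.25) did not pass (adjusted p = 0.216). Means were 21.9 ± 7.13 CPM in model livers (SD, n = 8) and 16.8 ± 4.52 CPM in control livers (SD, n = 6). Slc3a1 overlaps Prepl on the other strand over 601 of its 2271 exonic bases. Its partner Slc7a9 had no count in any library.

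**Figure D2:**
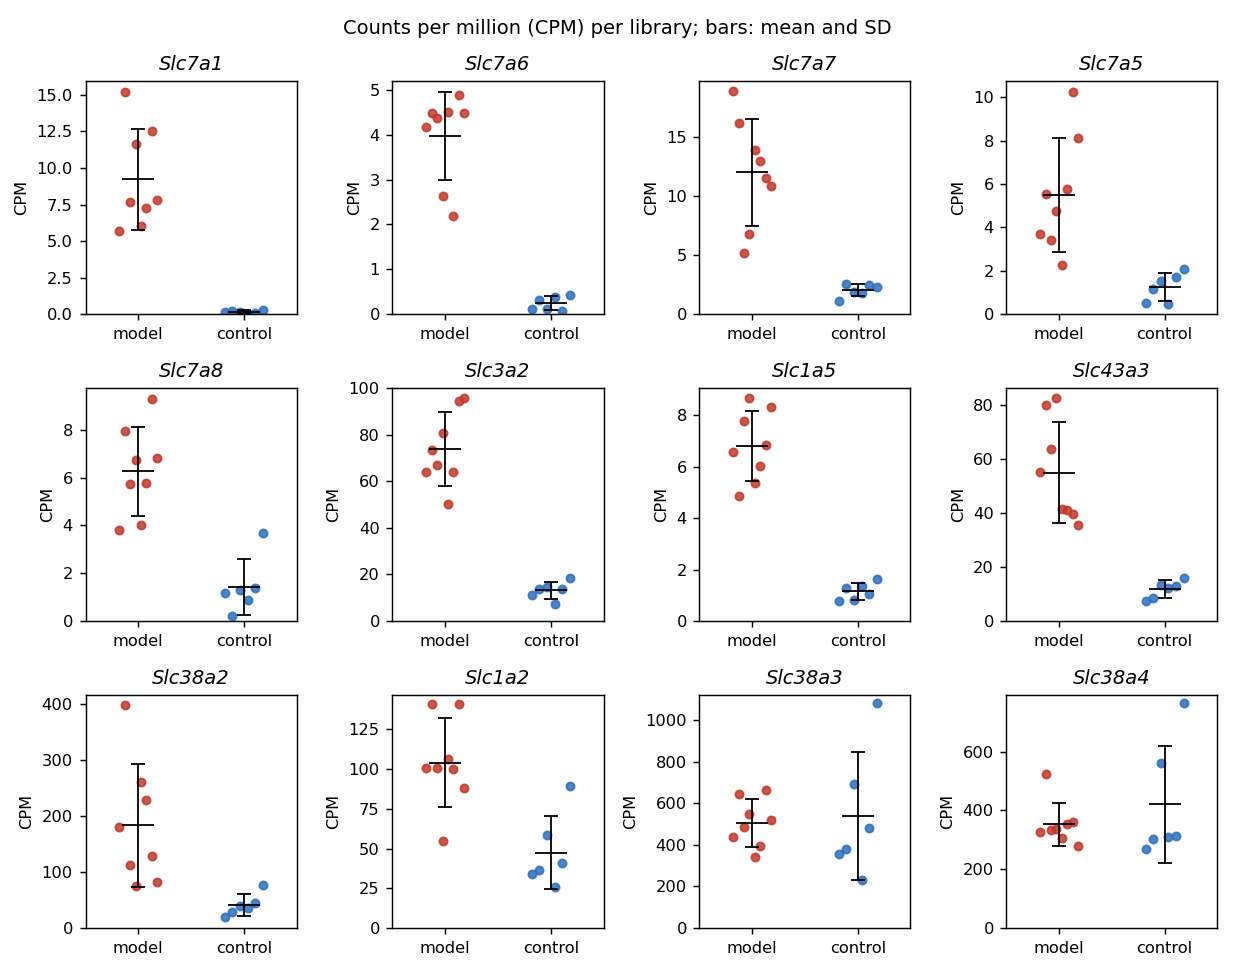
CPM (y axis, from 0) of 12 transporter genes in each of the 8 model and 6 control livers. Points are libraries and bars are mean and SD. Slc7a1 ran from 5.67 to 15.2 CPM in model livers and reached at most 0.328 CPM in control livers, while the points of Slc38a3 and Slc38a4 overlap throughout.

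The Slc1a family holds glutamate carriers and the neutral amino acid exchangers that are their relatives. Slc1a2, the glutamate carrier that hepatocytes around the central vein express, had a lowest, median and highest value of 54.6, 101 and 141 CPM in model livers and of 25.9, 38.8 and 89.1 CPM in control livers. The ranges overlapped through model replicates 4 and 8 and control replicates 3 and 6. Means were 104 ± 27.9 CPM in model livers (SD, n = 8) and 47.4 ± 23.1 CPM in control livers (SD, n = 6), with a log2 fold change of 1.13 (SE 0.28, adjusted p = 0.00256). Beside it, the 10 markers of pericentral hepatocytes summed to 4085 to 8280 CPM in model livers and 3862 to 7220 CPM in control livers, with 2 of 9 tested higher and 1 lower.

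Slc1a5, which brings glutamine into cells in exchange for other neutral amino acids, had a lowest, median and highest value of 4.88, 6.73 and 8.68 CPM in model livers and of 0.771, 1.17 and 1.64 CPM in control livers. The groups were far apart, and the log2 fold change was 2.54 (SE 0.24, adjusted p = 1.56e-07). Means were 6.82 ± 1.37 CPM in model livers (SD, n = 8) and 1.16 ± 0.331 CPM in control livers (SD, n = 6). Slc1a4, an exchanger of alanine, serine and cysteine, had 0.897, 3.20 and 4.68 CPM in model livers and 0.642, 0.970 and 1.75 CPM in control livers. It overlapped the controls only in model replicates 5 and 8, and its log2 fold change was 1.49 (SE 0.36, adjusted p = 0.00274). The log2 ratio of Slc1a5 to Slc1a4 averaged 1.30 ± 0.90 in model livers (SD, n = 8) and 0.17 ± 0.46 in control livers (SD, n = 6). The difference of 1.14 passed (adjusted p = 0.0246, two-sided exact permutation test) although the ranges overlapped. It no longer passed without control replicate 1 (adjusted p = 0.0606), 3 (0.0559) or 5 (0.0606), or without model replicates 7 and 8 (0.0519), where the difference was 0.86. The glutamate carrier Slc1a1, too low to be tested, had 47 counts over the model libraries and 2 over the controls, a ratio of 17.5 (95% Poisson interval 4.58 to 149, which covers counting error only), and overlaps 4430402I18Rik on the other strand.

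Among the Slc38a sodium-coupled carriers, the pair that hepatocytes express most did not pass the test. Slc38a3, which moves glutamine, asparagine and histidine in either direction, had a lowest, median and highest value of 344, 504 and 665 CPM in model livers and of 230, 430 and 1081 CPM in control livers. Model livers lay inside the range of the controls, whose highest value came from replicate 6. Means were 505 ± 114 CPM in model livers (SD, n = 8) and 537 ± 308 CPM in control livers (SD, n = 6), and the log2 fold change was -0.09 (SE 0.29, adjusted p = 0.817); without control replicate 6 it was 0.28 (adjusted p = 0.378). Slc38a4, a carrier of neutral amino acids that is concentrated in liver, had 280, 335 and 524 CPM in model livers and 268, 312 and 766 CPM in control livers. It overlapped in the same way, with a log2 fold change of -0.25 (SE 0.24, adjusted p = 0.411). The log2 ratio of Slc38a3 to Slc38a4 averaged 0.51 ± 0.30 in model livers (SD, n = 8) and 0.29 ± 0.37 in control livers (SD, n = 6), and the difference of 0.22 did not pass (adjusted p = 0.374, exact permutation test).

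Slc38a1 and Slc38a2, which are system A carriers of the same family, were higher. Slc38a2, which concentrates alanine and glutamine and is known to be induced when amino acids are scarce, had a lowest, median and highest value of 75.5, 154 and 397 CPM in model livers and of 18.8, 37.0 and 75.9 CPM in control livers. The groups met only at model replicate 4 and control replicate 6, and the model livers spread more than 5-fold among themselves. Means were 183 ± 109 CPM in model livers (SD, n = 8) and 40.3 ± 19.5 CPM in control livers (SD, n = 6), with a log2 fold change of 2.18 (SE 0.40, adjusted p = 0.000223). Slc38a1, its relative in neurons and dividing cells, had 1.80, 2.88 and 4.30 CPM in model livers and 0, 0.608 and 0.930 CPM in control livers. Its groups were apart, and its log2 fold change was 2.42 (SE 0.44, adjusted p = 0.000212). The log2 ratio of Slc38a1 to Slc38a2 averaged -5.81 ± 1.06 in model livers (SD, n = 8) and -6.51 ± 1.93 in control livers (SD, n = 6), and the difference of 0.69 did not pass (adjusted p = 0.533, exact permutation test).

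Slc38a9, a lysosomal protein that senses arginine for the growth kinase mTORC1, was the one transporter that fell. It had a lowest, median and highest value of 2.74, 3.31 and 4.83 CPM in model livers and of 4.24, 5.25 and 6.29 CPM in control livers. Model replicate 4 reached into the control range, and no other did. The log2 fold change was -0.59 (SE 0.19, adjusted p = 0.0181), with means of 3.52 ± 0.684 CPM in model livers (SD, n = 8) and 5.28 ± 0.720 CPM in control livers (SD, n = 6). The call was lost by a narrow margin without control replicate 6 (adjusted p = 0.0501), and also with no low-count filter (adjusted p = 0.0744) and with the replicate block over replicates 1 to 6 (adjusted p = 0.076). Slc38a7, a lysosomal exporter of glutamine and asparagine, averaged 5.78 ± 3.53 CPM in model livers (SD, n = 8) and 7.74 ± 1.66 CPM in control livers (SD, n = 6), with a log2 fold change of -0.42 (SE 0.33, adjusted p = 0.309). Slc38a10 averaged 71.6 ± 11.7 CPM in model livers (SD, n = 8) and 55.3 ± 18.2 CPM in control livers (SD, n = 6), with a log2 fold change of 0.37 (SE 0.21, adjusted p = 0.147), which passed without control replicate 6 (0.55, adjusted p = 0.0359). Both had overlapping groups. Slc38a5, a relative of Slc38a3, had 9 counts over the model libraries and none over the controls. That is 2.23-fold above a floor of 3 counts over the control group, with no allowance for counting error in the model.

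The Slc43a family holds facilitated carriers, which need no ion gradient. Slc43a3, which is known as a carrier of purine bases and not of amino acids, had a lowest, median and highest value of 35.8, 48.5 and 82.7 CPM in model livers and of 7.58, 12.7 and 16.1 CPM in control livers. Every model liver was more than 2-fold above every control, and models 7 and 8 were the lowest of the 8. Means were 55.1 ± 18.7 CPM in model livers (SD, n = 8) and 11.9 ± 3.20 CPM in control livers (SD, n = 6), and the log2 fold change was 2.20 (SE 0.26, adjusted p = 1.7e-06). Slc43a2, a carrier of large neutral amino acids, had 3.52, 5.91 and 12.9 CPM in model livers and 1.83, 2.73 and 5.25 CPM in control livers. The ranges overlapped through the highest control, replicate 6, and the log2 fold change was 1.24 (SE 0.32, adjusted p = 0.00394), with means of 7.11 ± 3.22 CPM in model livers (SD, n = 8) and 2.99 ± 1.20 CPM in control livers (SD, n = 6). Slc43a1, which carries the same kind of substrate, stayed under 5 CPM on average in both groups and did not pass. The log2 ratio of Slc43a1 to Slc43a2 averaged -0.53 ± 0.63 in model livers (SD, n = 8) and 0.39 ± 0.51 in control livers (SD, n = 6). The difference of -0.92 passed (adjusted p = 0.0246, two-sided exact permutation test) with overlapping ranges. It no longer passed without control replicate 1 (adjusted p = 0.0606), 3 (0.0559) or 5 (0.0606), without model replicates 3 and 4 (0.0736) or without model replicates 7 and 8 (0.0779).

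**Figure D3:**
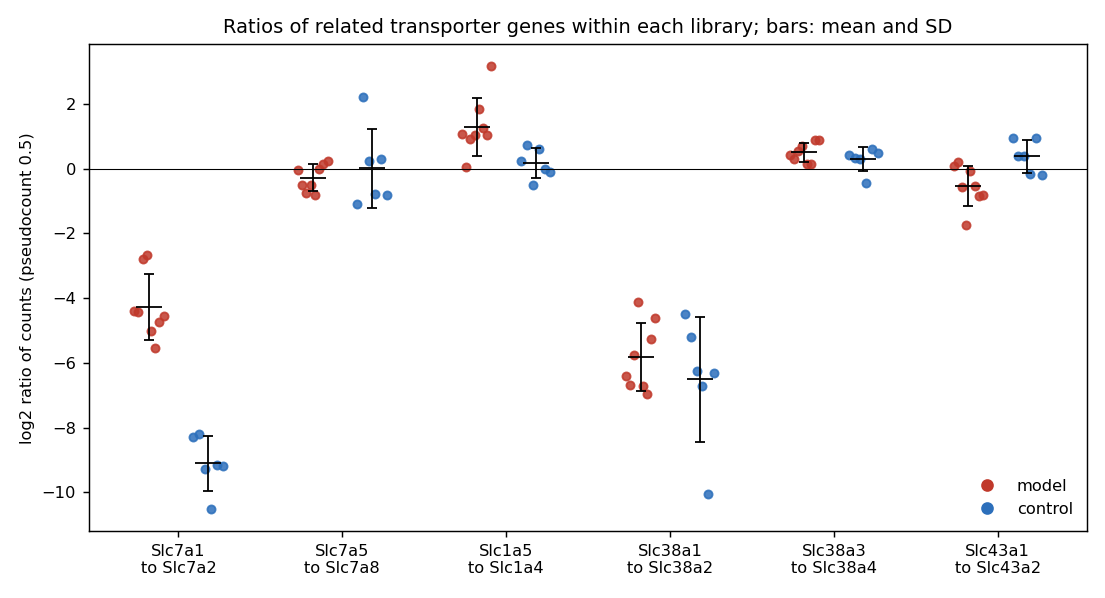
Log2 ratio of counts of 6 pairs of related transporters within each library (y axis, pseudocount 0.5), with 8 model livers in red to the left of 6 control livers in blue for each pair. Bars are mean and SD. The groups are apart for Slc7a1 to Slc7a2 (means -4.26 in model livers and -9.10 in control livers) and overlap for the other 5 pairs.

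In the Slc6a family, whose members carry taurine, creatine, glycine, betaine and GABA, 5 of the 6 genes tested did not pass. Slc6a13, a carrier of GABA and taurine and the family's highest message per length in control livers, had a lowest, median and highest value of 47.5, 112 and 120 CPM in model livers and of 82.4, 101 and 125 CPM in control livers. The 6 models other than replicates 7 and 8 lay in the control range, and those replicates were below it at 57.5 and 47.5 CPM. Means were 95.4 ± 28.96 CPM in model livers (SD, n = 8) and 104 ± 17.8 CPM in control livers (SD, n = 6), and the log2 fold change was -0.12 (SE 0.22, adjusted p = 0.666). Slc6a9, a glycine carrier, was at 31.4 and 50.4 CPM in model replicates 7 and 8, at 5.21 to 10.8 CPM in the other 6 models and at 3.38 to 18.7 CPM in control livers. Its log2 fold change was 0.64 (SE 0.53, adjusted p = 0.328), and -0.39 without those replicates (adjusted p = 0.382). Slc6a9 overlaps Ccdc24 on the other strand over 1429 of its 5141 exonic bases. The creatine carrier Slc6a8 was also highest in model replicates 7 and 8 and did not pass.

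Slc6a6, the taurine carrier, averaged 48.4 ± 21.4 CPM in model livers (SD, n = 8) and 27.7 ± 17.8 CPM in control livers (SD, n = 6). Its log2 fold change of 0.80 (SE 0.35) did not pass (adjusted p = 0.0687), but passed without control replicate 6 (1.21, adjusted p = 0.00578), without model replicates 3 and 4 (0.96, adjusted p = 0.0438) and with limma-voom (0.88, adjusted p = 0.0405). Slc6a12, the betaine and GABA carrier, averaged 31.5 ± 8.94 CPM in model livers (SD, n = 8) and 25.9 ± 14.5 CPM in control livers (SD, n = 6), with a log2 fold change of 0.28 (SE 0.29, adjusted p = 0.453). Slc6a14, which accepts nearly all neutral and cationic amino acids, was the family's one call. It had 168 counts over the 8 model libraries, from 0.0755 CPM in replicate 4 to 3.12 CPM with a median of 1.90 CPM, and no count in a control library. Set against a floor of 3 counts over the control group (0.0401 CPM), it was 41.7-fold higher in model livers (adjusted p = 8.51e-05, edgeR's quasi-likelihood test). That fold makes no allowance for counting error in the model. Slc6a14 passed in every alternative in which it was tested.

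Of the Slc36a carriers, Slc36a1 moves small amino acids with protons, largely out of lysosomes. Slc36a1 had a lowest, median and highest value of 5.38, 6.86 and 13.7 CPM in model livers and of 4.496, 11.2 and 21.7 CPM in control livers. The model range lay inside the control range, and the log2 fold change of -0.42 (SE 0.32) did not pass (adjusted p = 0.303). It passed with the offset for length and GC content (-0.71, adjusted p = 0.024). Means were 8.62 ± 3.12 CPM in model livers (SD, n = 8) and 11.5 ± 6.29 CPM in control livers (SD, n = 6). Slc36a4 averaged 5.19 ± 2.94 CPM in model livers (SD, n = 8) and 7.62 ± 1.19 CPM in control livers (SD, n = 6), with a log2 fold change of -0.54 (SE 0.31, adjusted p = 0.162). Model replicates 7 and 8, at 9.48 and 9.66 CPM, were above every control, and the other 6 models were below every control. Slc38a7 had the same split, with models 7 and 8 at 10.4 and 12.1 CPM above every control and the other 6 below. Without those replicates Slc36a4 was lower at -0.96 (adjusted p = 0.00559) and Slc38a7 at -0.92 (adjusted p = 0.00451). Both were also lower with the offset for length and GC content (-0.89, adjusted p = 0.00931, and -0.71, adjusted p = 0.0497). Models 7 and 8 were the highest for both genes and were left out with that known. The p-values without them therefore do not show a fall.

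**Figure D4:**
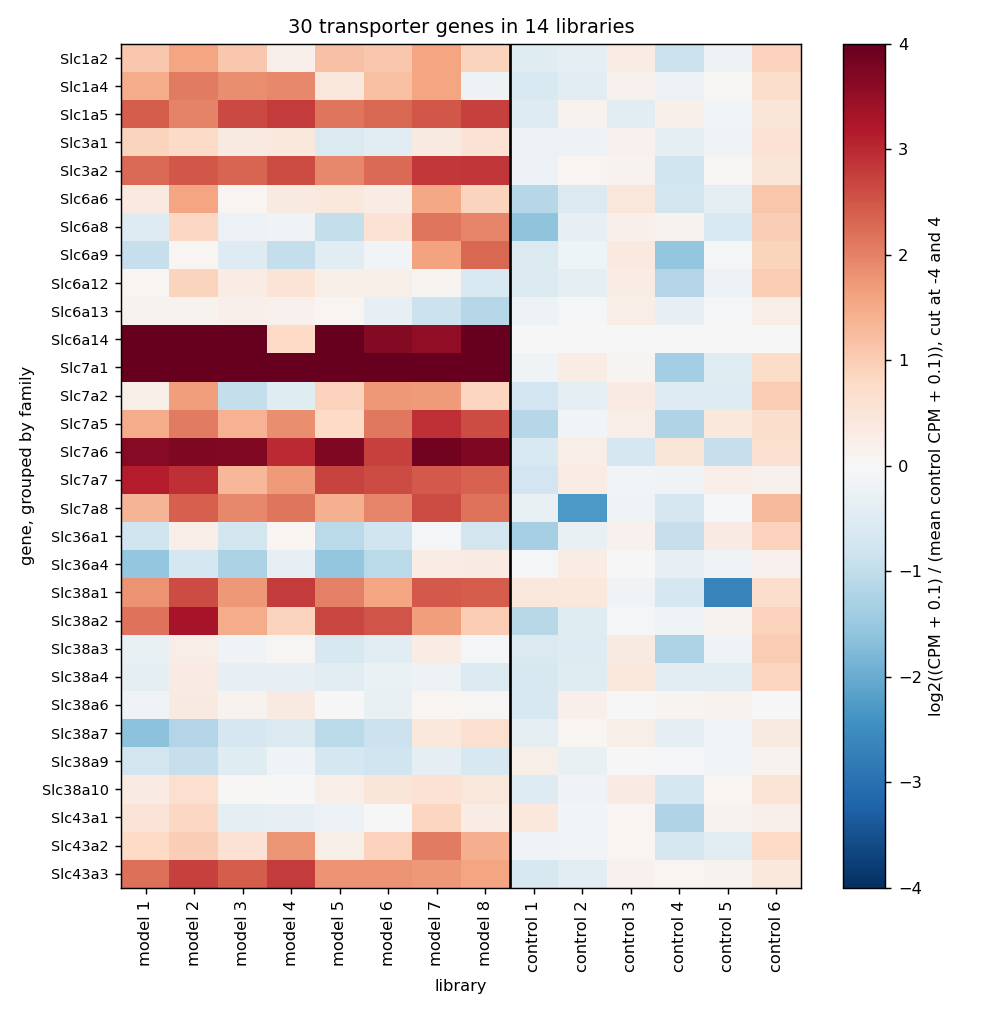
Level of 30 transporter genes (rows, by family) in 14 libraries (columns, model left of the line and control right of it) as log2 of CPM plus 0.1 over the mean control CPM plus 0.1, with colours cut at -4 and 4. Red is above the control mean and blue is below it. Control replicate 6 is the highest control for 25 of the 30 genes, and model replicates 7 and 8 are red where other models are pale for Slc6a8 and Slc6a9.

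Model livers thus differed among themselves for part of these genes. Replicates 7 and 8 were both above the other 6 models for 6 of the 30 genes (Slc3a2, Slc6a8, Slc6a9, Slc7a5, Slc36a4 and Slc38a7) and both below them for 2 (Slc6a13 and Slc43a3). Replicates 2 and 7 were both above the rest for 8 (Slc1a2, Slc6a6, Slc7a1, Slc7a8, Slc38a3, Slc38a4, Slc38a10 and Slc43a1). Replicates 2 and 4 were both above the rest for 6 (Slc1a4, Slc6a12, Slc36a1, Slc38a1, Slc38a6 and Slc43a3). Replicates 3 and 4 were both below the rest for 4 (Slc7a2, Slc7a7, Slc38a10 and Slc43a1) and above the rest for 1 (Slc6a13). Replicates 1 and 5 were likewise below the rest for 4 and above the rest for 1. Of the 28 pairs of models, replicates 7 and 8 and replicates 2 and 7 had the most such genes, and no label sets any pair apart. Replicates 7 and 2 had the most counts in genes of the models (16639972 and 15692874), and replicate 8 came next (13601511). Replicates 2, 7 and 8 also had the lowest shares of entries outside genes (30.6%, 30.5% and 31.1%), and replicate 6 came next (35.1%). The part of these library differences was not tested.

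Levels of different genes can be set side by side only per length, as CPM per kilobase of exon. In model livers Slc38a3 (95.7 CPM per kilobase) and Slc38a4 (82.8) came first, followed by Slc6a13 (32.9) and Slc7a2 (22.3). In control livers the first 4 places were the same, with Slc38a3 at 101.7, Slc38a4 at 98.7, Slc6a13 at 35.8 and Slc7a2 at 11.2 CPM per kilobase, followed by Slc38a10 (8.61), Slc6a12 (8.49) and Slc3a1 (7.41). Slc38a3 and Slc38a4 did not differ beyond their spread in model livers (SD 21.6 and 17.3) or in control livers (SD 58.4 and 47.0). Slc3a2 took place 5 in model livers (20.9 CPM per kilobase) against place 9 in control livers (3.74). Slc38a2 took place 6 in model livers (20.7) against place 8 in control livers (4.56), and Slc43a3 place 7 (12.3) against place 12 (2.67). Slc7a2, Slc3a2 and Slc38a2 in model livers lay within each other's spread. Slc38a3 and Slc38a4 together held 45.4% to 54.0% of the summed level per kilobase in model livers (median 50.8%) and 61.4% to 71.2% in control livers (median 63.5%). The ranges were apart, and this is a share, so it shows unequal change and not a loss of either gene.

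**Figure D5:**
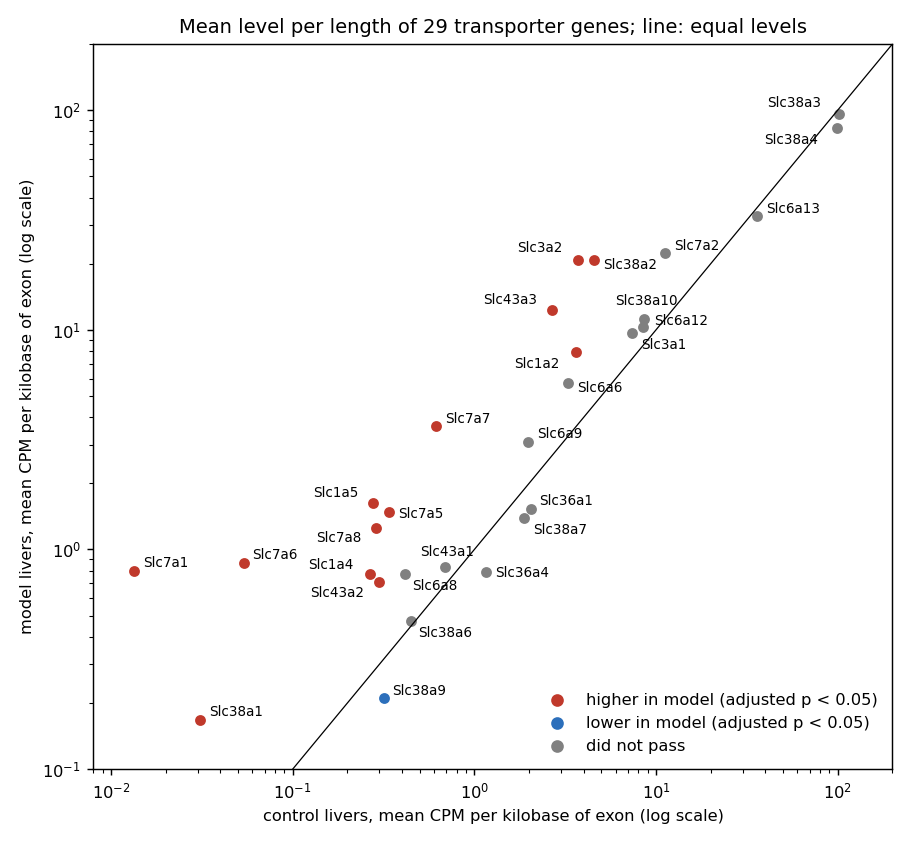
Mean level per length of 29 transporter genes in model livers (y axis) against that in control livers (x axis), both in CPM per kilobase of exon on log scales. The line marks equal levels, and colours mark genes that passed the test upwards (red), downwards (blue) or not at all (grey). Slc38a3 and Slc38a4 sit at the top right beside the line, and Slc7a1 lies at the far left at 0.8002 in model livers and 0.0134 in control livers.

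Slc6a8, Slc38a6 and Slc43a1, tested and not called, averaged under 5 CPM in both groups, with log2 fold changes of 0.88, 0.08 and 0.28. The 32 transporters that were not tested stayed at or under a mean of 0.797 CPM in either group. Besides Slc1a1 and Slc38a5, 4 of them had more than 3 counts in model libraries and none in controls: Slc36a2 (11 counts), Slc36a3 (8), Slc6a19 (6) and Slc7a3 (6). These counts came from 2, 3, 4 and 4 model libraries, and model replicate 8 held 10 of the 11 for Slc36a2. The serotonin carrier Slc6a4 had 44 counts over the model libraries and 53 over the controls, and Slc7a4 had 36 and 44. Slc6a16 had 16 counts over the model libraries and 62 over the controls. The opposite-strand row with enough counts, Slc7a6os, a protein-coding gene, did not pass (log2 fold change -0.34, adjusted p = 0.153).

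Genes that work beside the transporters were counted from lists chosen by function, against the same shares of all genes tested (26.6% higher and 21.3% lower). Among targets of ATF4, the factor that turns on carriers and synthesis enzymes when amino acids are scarce, 10 of 24 tested were higher and 1 was lower. The 3 with the largest rise among those averaging 5 CPM or more in a group were Nupr1, a stress-induced chromatin protein (9.82 ± 1.81 CPM in model livers and 0.784 ± 0.214 CPM in control livers, log2 fold change 3.63), the serine synthesis enzyme Psat1 (8.07 ± 5.24 CPM in model livers and 0.976 ± 0.430 CPM in control livers, 3.05) and Cebpb, a partner of ATF4 (160 ± 92.0 CPM in model livers and 24.6 ± 7.802 CPM in control livers, 2.70). The ATF4 target that was lower was Fgf21 (-2.69), at 0.275 CPM in model livers and 1.76 CPM in control livers. The other 13 of the 24 did not pass, among them Atf4 itself (0.46, adjusted p = 0.167, edgeR's quasi-likelihood test). The share of this list called in either direction, 45.8%, was near the 47.9% of all genes tested. Among genes of amino acid sensing at mTORC1, 2 of 35 were higher and 10 were lower. Sesn2, a leucine sensor that is itself an ATF4 target, was higher (log2 fold change 1.38), and its relative Sesn1 (-1.61) and the GATOR subunits Nprl2 (-1.52) and Wdr24 (-1.30) were lower. The nucleoporin Seh1l, which is also a GATOR subunit, was higher (0.68).

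Of 18 enzymes of glutamine, glutamate and ammonia tested, 4 were higher and 2 were lower. Arg2, the mitochondrial arginase, averaged 19.1 ± 5.05 CPM in model livers and 0.326 ± 0.322 CPM in control livers (log2 fold change 5.84). Oat, the ornithine aminotransferase of pericentral hepatocytes, was higher (1.34), while Arg1, the urea cycle arginase, was lower at 969 ± 229 CPM in model livers and 1477 ± 264 CPM in control livers (-0.61). Nags, which makes the activator of the urea cycle, was also lower (-1.59). Of 42 other enzymes of amino acid breakdown, 4 were higher, among them Sds (1.41), Tat (1.40) and Aass (1.32), and 8 were lower, among them Bckdk (-2.32), Bcat2 (-1.54) and Hal (-1.29).

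Of 10 mitochondrial amino acid carriers tested, 1 was higher and 3 were lower: the serine carrier Sfxn1 (log2 fold change -0.77), the branched-chain carrier Slc25a44 (-0.71) and the aspartate-glutamate carrier Slc25a13 (-0.63). Of 7 peptide, vesicle and lysosomal carriers and accessory subunits, Slc15a3 was higher, at 66.3 ± 16.4 CPM in model livers and 3.43 ± 1.61 CPM in control livers (4.26). It is a lysosomal peptide carrier of macrophages and other immune cells. The vesicular glutamate carrier Slc17a8 (-1.45) and the lysosomal cationic carrier Slc66a1 (-1.22) were lower. Errors in these lists are SDs (n = 8 model livers and n = 6 control livers). Each gene named, Atf4 aside, passed at an adjusted p under 0.05 (edgeR's quasi-likelihood test). The share of members called higher was above that of all genes for the ATF4 targets and below it for the other lists, and these shares are given with no test of a list.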

How the data were processed

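Polyadenylated liver RNA of 14 samples was sequenced, per the labels' protocols. The authors deposited raw counts per gene, 1 file per sample. Per the submitters' processing notes, HISAT2 and build GRCm39 were used. Version, counting program, strand setting and annotation were not given in the sources used here. Genes that overlap on opposite strands therefore cannot be told apart. In each deposited file, 5 summary lines that name no gene held 27.4% to 45.6% of entries and were kept out.

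Tests used edgeR 4.0.16 in R 4.3.3, with TMM factors, filterByExpr (about 0.796 CPM in at least 6 libraries), a robust quasi-likelihood fit over all 12915 genes that passed, the group as its single term, and p-values adjusted by Benjamini-Hochberg. The threshold for a call was 0.05. CPM (counts per 1e6) uses TMM library sizes, with SE taken as log2 fold change over the square root of F. For groups with no count, the floor was 3 counts over the group. Within-library ratios (pseudocount 0.5) were compared by exact permutation tests adjusted over the 6 ratios. Levels per kilobase used GENCODE M21 exon lengths (GRCm38), and promoters were RefSeq's windows of GRCm38.p6. The fits were tested on simulated data.

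Called transporters that average 1 CPM or more in either group are named. Those also changed 2-fold at 5 CPM, and the gene with the highest control level per kilobase in each family, have full values. Genes not called are named at 5 CPM, and a few lower ones were named after their values were seen. List genes are up to 3 in each direction by size among calls at 5 CPM, with Atf4 and Fgf21 besides. 1 list gene that this takes is not reported here. The genes, lists and left-out pairs of libraries were chosen with earlier results of these data known. A call gained only by leaving out such a pair therefore does not show a change. Of 43 within-group pairs of libraries, none agreed within sampling noise. Alternatives were other scalings (DESeq2 1.42.0 size factors, upper quartile, library totals), DESeq2, limma-voom (limma 3.58.1), no filter, a length and GC offset, a replicate block and libraries left out. Comparisons of protein sequences were not analysed here.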

Additional observations from a re-analysis of the deposited data

Results flagged for a closer look

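Over 72 groups of values (30 genes and 6 ratios in each of the model and control groups), the distance of the highest or lowest library to its nearest neighbour was set against the whole range of the group. In 4 groups it was larger than Dixon's 95% limit, and chance alone gives about 1 in 20. Slc38a4 was at 524.0 CPM in model replicate 2, and the next highest model was at 361.4 CPM. Slc38a6 was at 2.184 CPM in control replicate 1, and the next lowest control was at 3.502 CPM. Slc7a8 was at 3.666 CPM in control replicate 6, and the next highest control was at 1.401 CPM. The log2 ratio of Slc38a3 to Slc38a4 was -0.431 in control replicate 4, and the next lowest control was at 0.3053.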

How the results depend on the processing

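Of the 14 transporters called higher, 13 were called higher under all 25 alternatives and Slc6a14 under the 22 in which it was tested. The count of those higher was 13 to 17, the 17 without control replicate 6. The count of those lower was 4 with the length and GC offset, 3 without model replicates 7 and 8 (that is, replicates 1 to 6 with no replicate block), 2 with the replicate block over replicates 1 to 6, and 0 to 1 with each library left out in turn, the 0 without control replicate 6. Medians of all genes moved from 0.0099 to -0.23 with library totals, -0.14 with upper-quartile factors, -0.22 when length and GC were corrected, and 0.29 with no low-count filter. The split of all genes was 2533 higher and 3955 lower with library totals and 2964 higher and 4394 lower with the offset, against 3437 higher and 2751 lower. With no low-count filter Slc1a1 (3.68) and Slc38a5 (3.30) were also called higher and Slc6a16 (-2.26) lower.

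Most same-numbered libraries did not deviate together (correlations -0.342 to 0.363, with 1 of 6 closest to its own number). The labels name no pairing, and so few pairs cannot exclude one. With the replicate block the ratio differences were 4.97 for Slc7a1 to Slc7a2 (adjusted p = 0.0938, exact sign flips), 0.86 for Slc1a5 to Slc1a4 (0.188) and -0.82 for Slc43a1 to Slc43a2 (0.0938), where 6 pairs allow few p-values. The last was -0.71 without model replicates 3 and 4 and -0.82 without 7 and 8, where Slc1a5 to Slc1a4 was 0.86. With each library left out, Slc1a5 to Slc1a4 ran from 0.87 to 1.31, Slc43a1 to Slc43a2 from -1.04 to -0.75, Slc7a5 to Slc7a8 from -0.51 to 0.15 and Slc38a1 to Slc38a2 from -0.0181 to 1.10. A pseudocount of 5 turned the last to -0.25.

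Genes not called changed sign as follows, and the cause was not tested. Slc38a3 was 0.0645 with limma-voom, 0.0251 with the replicate block and 0.28 without control replicate 6. Slc38a4 ran from -0.43 to 0.0456 with each library left out. Slc38a6 was -0.16 with library totals, -0.0715 with upper-quartile factors, -0.25 with the offset, and -0.0281 to 0.13 with each library left out. Slc43a1 was -0.0712 with the offset and Slc6a12 -0.0360 with library totals. Slc6a13 was 0.12 and Slc6a9 -0.39 without model replicates 7 and 8, and 0.14 and -0.26 with the replicate block. Low counts limit Slc7a1, Slc7a6, Slc38a1 and Slc6a14, whose controls held 13, 19, 41 and 0 counts.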
